A study of Caenorhabditis elegans with 2 samples.

Results

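Caenorhabditis elegans has many more nuclear hormone receptor genes than most animals, and a large share of them lies on chromosome V. The genes described here are the 159 protein-coding genes on that chromosome whose symbol is nhr- followed by a number, after 8 others on V were left out by name. They were set against 19973 protein-coding genes in all. The rule sets 4 of those 8 aside because their NHR-28 signal is high (nhr-178, nhr-202, nhr-237 and nhr-256), and the other 4 as metabolic receptors (nhr-13, nhr-68, nhr-86 and nhr-114). All 8 had a promoter summit, so without them the counts and the median signal of the genes that stay are lower.

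The study mapped NHR-28, itself a nuclear hormone receptor, by chromatin immunoprecipitation followed by sequencing (ChIP-seq) in whole larvae of the L4 stage, the last larval stage. Animals of strain OP317 carried the integrated transgene wgIs317, which encodes eGFP-tagged NHR-28, in an unc-119(ed3) mutant background, with both sexes pooled. There was 1 group of 2 biological replicates, each a peak list of 30000 regions, and the authors' optimal set of 8745 regions derived from both. Whole animals were used, so the cells in which a region was bound are not known. The labels do not say how closely the transgene follows the endogenous gene. No untagged or other control sample was analysed here, and the read depth behind the regions is unknown.

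Nuclear hormone receptors are transcription factors with a DNA-binding domain of a pair of zinc fingers and a domain that can bind small lipophilic molecules. Most of the additional worm receptors descend from an ancestor related to HNF4, a vertebrate receptor of liver and gut. Many arose by tandem duplication, and few have a known ligand or target. A summit is the base at which a region's signal was highest. The promoter of a gene was taken as the 1000 bp before and the 200 bp after each of its transcription start sites (TSSs).

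Of the 159 genes, 63 (39.6%, Wilson 95% interval 32.4 to 47.4) had an optimal summit in their promoter and 96 had none. Over all protein-coding genes the share was 24.8% (4946 of 19973), and over chromosome V genes other than nhr it was 22.6% (1090 of 4827). On other chromosomes, 43 of 102 nhr genes (42.2%) had one. With the 8 left out put back, chromosome V held 71 of 167 (42.5%). These shares stand side by side without a test, because the genes were chosen with earlier results of these data known. Intervals cover counting error only, and neighbouring genes are not independent.

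The members' share was above that of all genes under each of the 8 other promoter definitions and lists tried. With a promoter of 500 bp before and 100 bp after the TSS it was 34.0% of the members against 19.7% of all genes, and with one of 2000 bp before and 500 bp after, 45.3% against 31.5%. With each summit given to its nearest TSS only, 38.4% of the members and 20.9% of all genes had one. By any overlap of the region with the promoter the values were 39.6% and 26.1%. With only the optimal regions above the median signal they were 27.7% and 13.7%, and among all pooled regions at the maximal q they were 44.0% and 28.6%. From the 8745 regions of highest signal in replicate 2 alone they were 39.0% and 24.6%, and from those of replicate 1 alone 40.9% and 24.5%. In all, 36 members had a summit under all 9 settings and 79 under at least 1. The same counts over all genes are not given here, so these are not shown to be particular to the members.

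**Figure D1:**
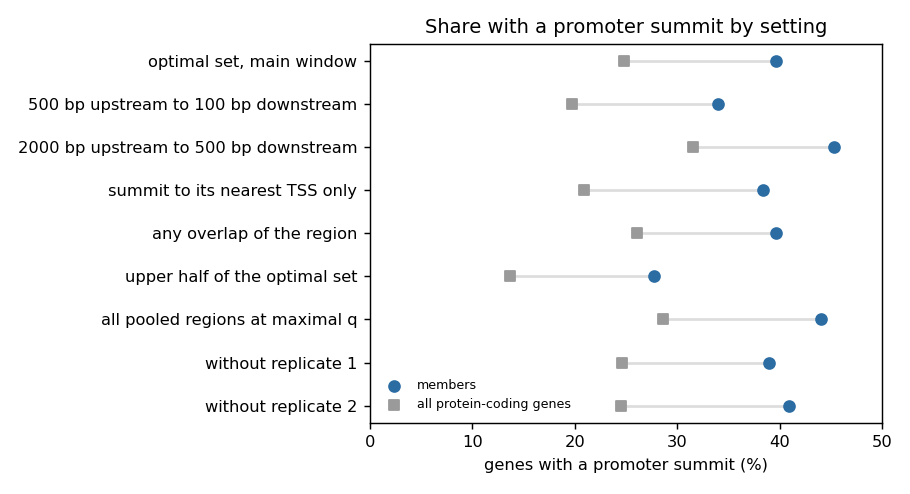
Share of genes with a promoter summit (x axis, percent) under 9 settings (y axis), with members as circles and all protein-coding genes as squares. The circles lie to the right of the squares in every line, at 39.6% against 24.8% under the main setting.

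Where a summit was present, the signal was mostly above the median of all genes. Signal is the value that the authors' lists give each region, on a scale the files do not name. The highest promoter signal per gene had a median of 129 over the 63 members (quartiles 69.1 and 173, range 36.3 to 527). Over all genes with a promoter summit the median was 78.8 (quartiles 53.9 and 123). Of the 63 members, 42 were above that median, and 15 of their 63 summits were among the 874 optimal regions of highest signal. Those 874 were taken from all 8745 optimal regions, in promoters or not. The same count over all promoter summits is not given here. The nhr genes of other chromosomes had a median of 117.

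The member of highest signal was nhr-142 (WBGene00018430, V 5785957 to 5790553, minus strand). Its promoter region had a signal of 527, rank 28 of the optimal set, with 333 in replicate 1 and 207 in replicate 2. The same region lay in the promoter of the divergent gene F44E7.9. A further optimal region lay in an intron of nhr-142 (V 5788691 to 5789009) with a signal of 436. Optimal regions outside the promoter lay in the body of 3 other members, at 111 (nhr-247), 68.8 (nhr-201) and 65.8 (nhr-53), each over an exon. The next highest promoter signal was that of nhr-238 (481; 265 in replicate 1 and 215 in replicate 2), a neighbour of the left-out nhr-237, where 80.2% of promoter 36-mers occur once in the genome.

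Next came nhr-135 (375; 217 and 158 in replicates 1 and 2), nhr-203 (365; 229.8 and 140.2) and nhr-206 (318; 231 and 91.0). They lie far apart on the chromosome, nhr-203 near its left end beside nhr-202. nhr-58 had a signal of 317 (189 and 127), nhr-79 of 285 (161 and 125) and nhr-107 of 263 (154 and 106). The lowest rank of any of these 8 summits in either replicate list was 468, that of nhr-206 in replicate 2. The sequences of these 8 summits are shown because they carry the highest NHR-28 signal among the members. Each is 101 bp centred on the summit, on ce11 (WBcel235, from the RefSeq genome), read 5′ to 3′ on the strand of the gene, and free of annotated exons. Capitals mark matches on either strand to 11 motifs: the GATA sequence TGATAA, the 8 half-sites and other motifs whose shares are given after it, the 8-mer CTGCGTCT and the GATA variant AGATAAG. Other 8-mers and GATA variants are not marked. A window with no capitals holds none of them.
nhr-142 (chrV:5790640-5790740, minus strand): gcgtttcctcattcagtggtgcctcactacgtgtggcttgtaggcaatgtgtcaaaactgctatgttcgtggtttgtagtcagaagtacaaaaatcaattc
nhr-238 (chrV:1629471-1629571, minus strand): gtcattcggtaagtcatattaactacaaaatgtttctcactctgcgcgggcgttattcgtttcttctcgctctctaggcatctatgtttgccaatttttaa
nhr-135 (chrV:7094132-7094232, minus strand): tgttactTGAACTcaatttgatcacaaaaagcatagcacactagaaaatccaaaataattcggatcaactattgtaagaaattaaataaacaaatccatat
nhr-203 (chrV:459596-459696, plus strand): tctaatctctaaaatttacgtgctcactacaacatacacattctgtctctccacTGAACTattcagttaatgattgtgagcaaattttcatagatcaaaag
nhr-206 (chrV:12091904-12092004, plus strand): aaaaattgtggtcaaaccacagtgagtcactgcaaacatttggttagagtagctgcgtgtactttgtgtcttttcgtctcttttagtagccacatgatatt
nhr-58 (chrV:532128-532228, plus strand): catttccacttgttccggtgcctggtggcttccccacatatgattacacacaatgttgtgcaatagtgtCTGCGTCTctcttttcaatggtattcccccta
nhr-79 (chrV:19212483-19212583, minus strand): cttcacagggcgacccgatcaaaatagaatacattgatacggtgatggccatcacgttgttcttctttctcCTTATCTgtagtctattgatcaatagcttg
nhr-107 (chrV:6997320-6997420, minus strand): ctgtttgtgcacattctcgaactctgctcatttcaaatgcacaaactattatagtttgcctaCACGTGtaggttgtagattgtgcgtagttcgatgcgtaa

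**Figure D2:**
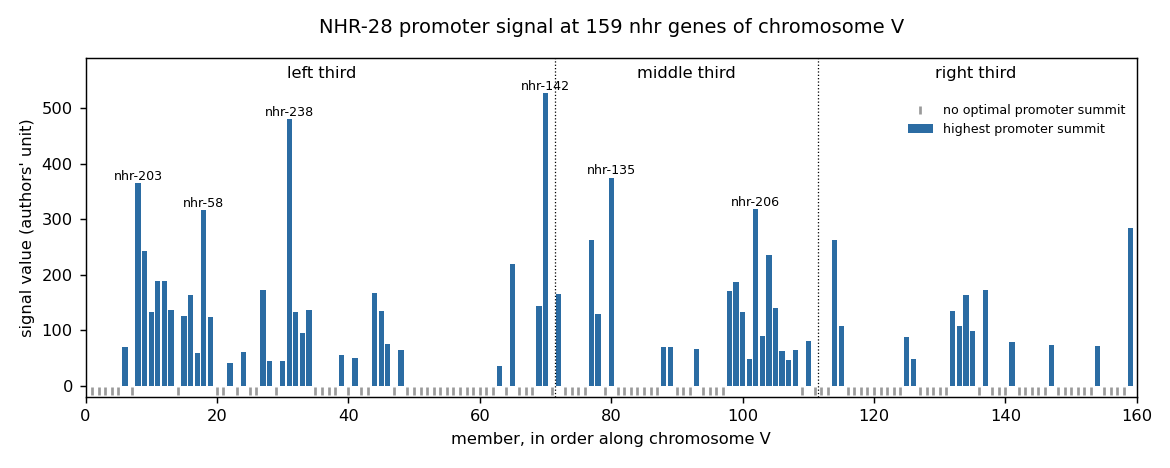
Highest optimal promoter signal (y axis, authors' unit) of the 159 members in their order along chromosome V (x axis), with ticks under the axis for the 96 members without a promoter summit and dotted lines dividing the chromosome into 3 equal stretches. nhr-142 is highest at 527, and several long stretches of neighbouring members have no bar.

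None of these 11 motifs stood in more than 2 of the 8 windows. A match to AGTTCA, a variant of the nuclear receptor half-site, stood in those of nhr-135 and nhr-203, an E-box CACGTG in that of nhr-107, CTGCGTCT in that of nhr-58 and AGATAAG in that of nhr-79. The windows of nhr-142, nhr-238 and nhr-206 held none of the 11. None of the 63 member windows shared a run of 20 bases with another.

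Other members among the 20 of highest signal ran from 262 at nhr-291 down to 165 at nhr-161. They included nhr-201 (243; 154 in replicate 1 and 98.4 in replicate 2), nhr-207 (235; 142 and 92.7) and nhr-57 (219.8; 138 and 80.9). nhr-57 is known as a gene induced by low oxygen through HIF-1. The others were nhr-130 and nhr-55 (both 189), nhr-12 (187), nhr-177 (173), nhr-176 (172), nhr-205 (171) and nhr-59 (168). nhr-176 is known as a receptor needed for the induction of a cytochrome P450 gene by thiabendazole, a drug against worms. The replicate values of nhr-176 were 100.2 and 73.5. nhr-130 and nhr-55 are neighbours on opposite strands, each with a region of its own.

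The weakest members of the optimal set were close to its lower bound of 36.2. They were nhr-179 (45.1), nhr-110 (44.5), nhr-90 (41.0) and nhr-156 (36.3). For nhr-156 the signal was 28.7 in replicate 1 and 7.99 in replicate 2, where the region ranked 13509. Just outside the optimal set, pooled regions at the maximal −log10 q lay in the promoters of nhr-117 (35.5), nhr-226 (34.4), nhr-286 (32.9) and nhr-170 (31.5). The values on either side of this bound are close.

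Both replicates held a region over every one of the 63 distinct member summits. In 59 of them the region ranked within the first 8745 of both replicate lists. Signal in the replicates was correlated over these summits (Spearman rho 0.859, n = 63). The counts and the correlation are descriptions, since the summits share libraries and were picked on both replicates together. A region in both lists is thus largely given by that choice, and the same counts over all optimal regions are not given here. The members did not all hold their order. nhr-42 had 102 in replicate 1 (rank 1045) and 28.7 in replicate 2 (rank 4374), and nhr-213 ranked 1944 and 6541. In the other direction, nhr-65 had 29.5 in replicate 1 (rank 7029) and 41.4 in replicate 2 (rank 2593). Using replicate 2 alone, nhr-134, nhr-156 and nhr-179 had no summit and nhr-98 and nhr-117 gained one. Using replicate 1 alone, nhr-90 lost its summit and nhr-170, nhr-226 and nhr-286 gained one.

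**Figure D3:**
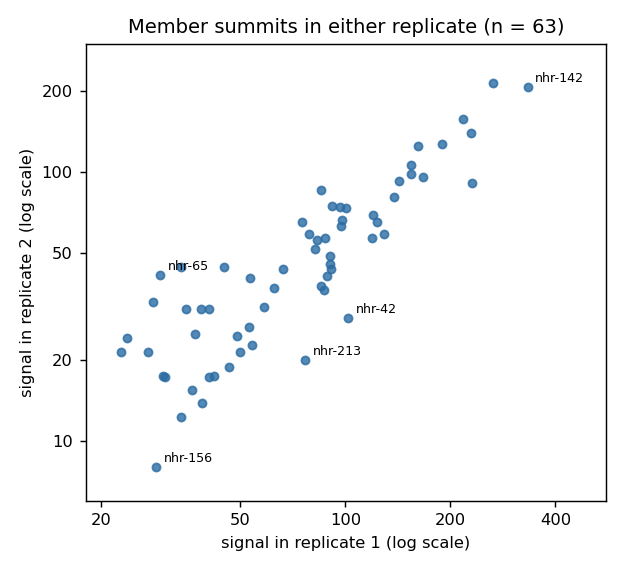
Signal of the 63 distinct member summits in replicate 1 (x axis) and replicate 2 (y axis), both on log scales and in the authors' unit, 1 point per summit. Points run along a diagonal band, with nhr-42, nhr-156 and nhr-213 lowest in replicate 2 for their replicate 1 values and nhr-65 highest.

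Many members lie side by side. Of the 159 members, 101 had another member as the next protein-coding gene, in 19 runs of 2 and 12 runs of 3 or more. A promoter summit was present in 21 of the 58 members with no adjacent member (36.2%), in 14 of 38 in runs of 2 (36.8%) and in 28 of 63 in longer runs (44.4%). The intervals of these shares overlap. nhr-201, nhr-238 and nhr-177, each with a summit, count as having no adjacent member only because the rule left out the nhr genes beside them. Of the 70 pairs of adjacent members, 16 had a summit at both genes, 23 (32.9%) at 1 and 31 at neither. Over all 12561 pairs of members, 48.1% had one at 1 gene of the pair, so adjacent members differed less often than members at large. Pairs share genes, the adjacent nhr-94 and nhr-152 share their summit, and the difference was not tested. The same share over adjacent genes other than nhr is not given here. The longer runs themselves ranged from no member with a summit to every member.

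The run at V 12092006 to 12109313 had a summit in all 7 promoters. All 7 genes lie on the plus strand within 17308 bp. Their signals were 318 (nhr-206), 89.1 (nhr-208), 235 (nhr-207), 140 (nhr-209), 61.8 (nhr-154), 46.7 (nhr-153) and 64.8 (nhr-136), in chromosomal order. The first 4 genes were thus between 89.1 and 318, and the last 3 below 65. Within 50 kb of the run, 5 of 27 protein-coding genes other than nhr had a promoter summit. No summit in the run served more than 1 of its promoters.

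Near the left end, the run of nhr-99, nhr-55, nhr-130, nhr-212, nhr-211 and nhr-106 (V 474778 to 491432) had summits in 5 of 6. Their signals were 133, 189, 189, 137 and 126, with none at nhr-211, which lies 86 bp from the gene upstream of it and had no promoter region in any list. The run of nhr-123, nhr-98 and nhr-203 beside it had 69.3 at nhr-123 and 365 at nhr-203. nhr-98, between them, had a pooled region of 30.8 below the optimal set. nhr-202, left out by the rule, comes next, followed by nhr-201. In the first Mb of the chromosome, 14 of 25 members (56.0%) and 37 of 198 genes other than nhr (18.7%) had a summit. In the fourth Mb, where the longest run lies, the counts were 1 of 13 members (7.69%) and 50 of 248 other genes (20.2%).

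A pair of runs had none. The run of 9 at V 3844429 to 3886204 (nhr-185, nhr-186, nhr-188, nhr-189, nhr-187, nhr-157, nhr-158, nhr-159 and nhr-124) had no promoter summit and no pooled promoter region at all. In the replicate lists, weak regions were seen for nhr-186 (10.9 in replicate 1 only) and nhr-159 (2.58 in replicate 2 only). The run of 6 at V 15674007 to 15696217 (nhr-51, nhr-52, nhr-196, nhr-197, nhr-268 and nhr-198) had no promoter region in any of the lists. In these runs 8 of the 9 and 5 of the 6 promoters were at least 90% unique in 36-mers. Around the run of 9, 5 of 24 other protein-coding genes within 50 kb had a promoter summit, and around the run of 6, 1 of 28.

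Mixed runs made up the rest. In the run at V 2219004 to 2235180, nhr-56 (136) and nhr-134 (54.7) had summits and nhr-128, nhr-103, nhr-18, nhr-126 and nhr-96 had none. At V 2281759 to 2296977, nhr-228 (134), nhr-227 (74.4) and nhr-115 (63.8) had them and nhr-225 and nhr-226 did not. At V 6980587 to 7000651, nhr-161 (165), nhr-107 (263) and nhr-42 (129) had them and nhr-163, nhr-139, nhr-140 and nhr-162 did not. Single positives were nhr-143 (66.3) in the run with nhr-44, nhr-219 and nhr-195, and nhr-60 (48.2) beside nhr-283 and nhr-285. nhr-179 and nhr-110 stood on both sides of nhr-117, and nhr-291 (262) and nhr-247 (107) followed nhr-246, which had none. nhr-247 also had a region in its own body (111), slightly above that of its promoter, of which 48.1% was unique in 36-mers.

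**Figure D4:**
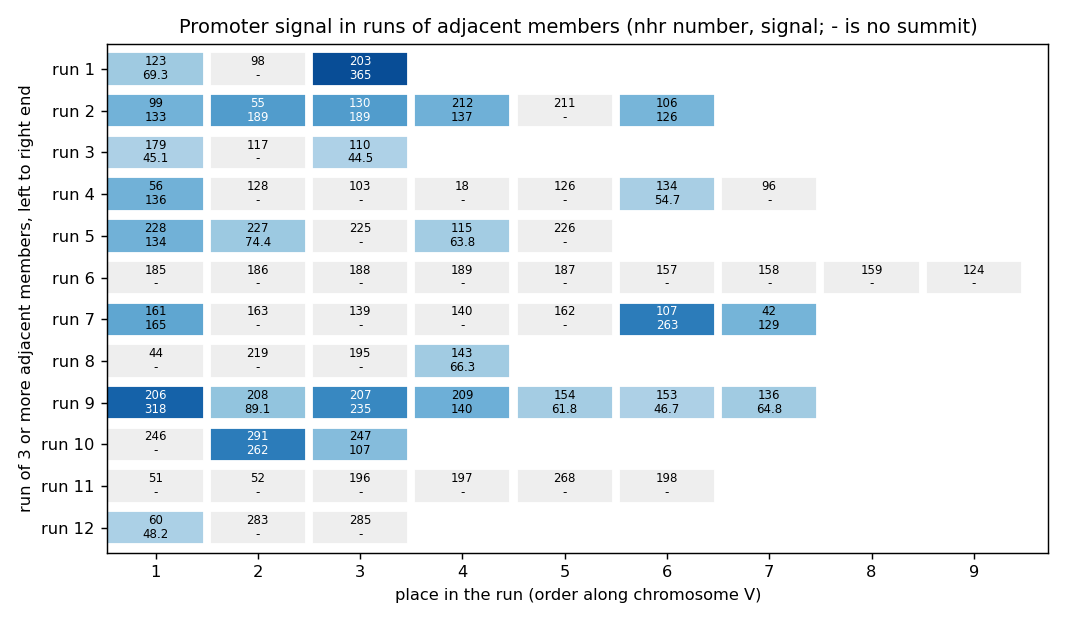
Each box is a member of a run of 3 or more adjacent members, in chromosomal order from left to right (x axis, place in the run), with 1 run per line from the left to the right end of chromosome V (y axis). Boxes give the nhr number and the signal, darker blue for higher signal, and grey boxes with a dash had no optimal promoter summit. Run 9 is filled throughout, while runs 6 and 11 are grey throughout.

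Along the chromosome, split into 3 equal stretches, summits were found for 31 of 71 members on the left (43.7%), 19 of 40 in the middle (47.5%) and 13 of 48 on the right (27.1%). Genes other than nhr had 22.8%, 27.1% and 17.4% there. The right stretch was lowest in both, and the members' share was above that of other genes in all 3. The median signal of members was 133, 129 and 107 from left to right.

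Summits sat close to the start site. Over the 64 pairs of a member and its summit, the median position relative to the nearest TSS of that gene was -94.5 bp (range -957 to 158 bp, negative values upstream). Over all 5556 pairs of a gene and a promoter summit it was -221 bp. Within 100 bp upstream lay 23 member pairs (35.9%), against 17.7% of all pairs. From -200 to -101 bp the members were lower (17.2% against 21.8%), as they were from -300 to -201 bp (6.25% against 13.6%). Within 300 bp upstream the shares were nearer, at 59.4% of member pairs and 53.0% of all pairs. A further 11 member pairs were at or downstream of the TSS, among them nhr-201 (158 bp), nhr-209 (150 bp), nhr-131 (119 bp) and nhr-176 (63 bp). From 0 to 99 bp lay 10.9% of member pairs and 5.02% of all pairs, and from 100 to 199 bp 6.25% and 2.12%. At the other end, 15 pairs lay more than 300 bp upstream, such as nhr-60 (-957 bp), nhr-53 (-871 bp) and nhr-79 (-638 bp). From -400 to -301 bp lay 4.69% of member pairs and 9.09% of all pairs, and from -500 to -401 bp 7.81% and 6.19%. Each bin further upstream held a smaller share of the member pairs than of all pairs. Annotated starts of worm genes are often sites of trans-splicing, so they can lie downstream of the base where transcription begins.

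**Figure D5:**
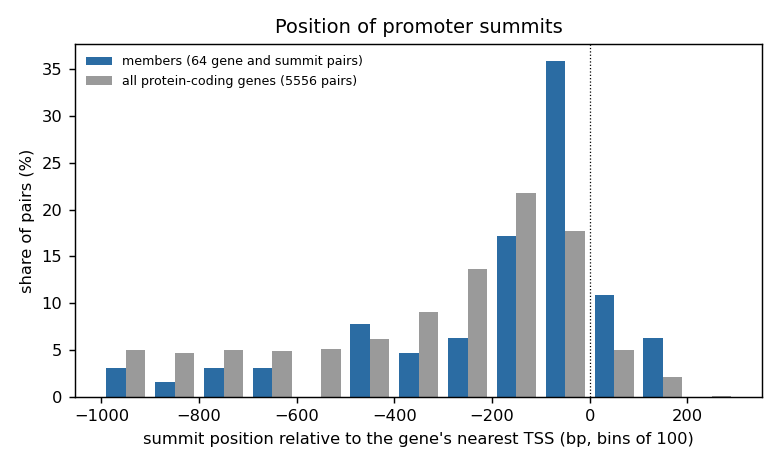
Share of gene and summit pairs (y axis, percent) by position of the summit relative to the nearest TSS of the gene (x axis, bins of 100 bp, negative values upstream), for 64 member pairs in blue and 5556 pairs of all protein-coding genes in grey. The tallest blue bar is the bin just upstream of the TSS, with 35.9% of member pairs.

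The space upstream was smaller, in the median, at members with a summit. The median distance to the next protein-coding gene upstream was 771 bp for members with a summit and 1304 bp for those without. A summit was found for 36 of 77 members (46.8%) with less than 1000 bp of such space and 27 of 82 (32.9%) with 1000 bp or more, with overlapping intervals. The same values over all genes are not given here, so this is not shown to be particular to the members. Of the 63 summits, 52 (82.5%) lay in the promoter of 1 gene only, near the 81.2% of all promoter summits. The other 11 also lay in the promoter of another gene, among them the 1 that the divergent pair nhr-152 and nhr-94 shared (69.1). Others were shared with dnj-19, a DNAJ co-chaperone gene (nhr-47, 144), with fbxa-137, an F-box gene (nhr-59), and with pms-2, a mismatch repair gene (nhr-101, 48.9). The nearest TSS was the member's own in 61 of 64 pairs, a share that is not given here for all pairs. The exceptions were nhr-213, nearer to the chemoreceptor gene str-60 (107), nhr-152, and the weaker of the 2 summits of nhr-232 (60.0), nearer to rop-1.

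The GATA sequence TGATAA, common at NHR-28 summits, was found at few of the members. It stood within 50 bp of 7 of 63 member summits (11.1%, Wilson 95% interval 5.49 to 21.2), against 32.2% of all 4645 promoter summits. These were nhr-291, which has a copy on each strand, nhr-212, nhr-232, nhr-106, nhr-247, nhr-168 and nhr-116. Within 100 bp the shares were 27.0% and 44.3%, and within 25 bp they were 4.76% and 18.8%. The shorter GATAA, searched after values had been seen, was at 33.3% of member summits and 45.0% of promoter summits. It covers TGATAA and AGATAAG as well. AGATAAG, likewise added, was at 10 of 63 (15.9%) against 4.16% of promoter summits. These 10 were nhr-79, nhr-130, nhr-177, nhr-176, nhr-108, nhr-84, nhr-99, nhr-193, nhr-179 and nhr-90, and none of them held TGATAA.

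Nuclear receptor half-sites were few at member summits and at promoter summits in general. AGGTCA was found at 2 member summits (3.17%, nhr-55 and nhr-205) against 4.18% of promoter summits. For AGTTCA the shares were 6.35% and 5.79%. The HNF4-type AAGTCCA was at 2 of 63 (3.17%) against 0.474%, and the longer CAAAGTCCA at 0 of 63, against 0.108%. The E-box CACGTG was at 6.35% against 4.63% and GAGAGAGA at 4.76% against 4.89%. CCGCCC and GTAAACA were at 1 member summit each (1.59%), against 4.56% and 2.97%. All were searched on both strands, and AAGTCCA is contained in CAAAGTCCA. A match is a string of letters and not a shown binding site.

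The 8-mer with the largest difference from other promoter summits was CTGCGTCT, chosen by that difference. It was within 50 bp of 15 member summits (23.8%), against 7.84% of all promoter summits. It overlaps in part with the next leading 8-mers, GTCTGCGT (15.9% against 3.19%) and GCGTCTCT (17.5% against 5.43%). In windows 500 bp to one side of the same summits it was found in 1 of 63. At promoter summits of nhr genes that were not members it was at 9 of 66 (13.6%). At the 999 promoter summits of other chromosome V genes it was at 7.01%. Because the 8-mer was chosen at the member summits, lower shares in other windows follow in part from that choice and are no further support. In 13 of the 15 member windows it read in the direction of the gene. Among summits in the promoter of 1 gene only, it did so in 10 of 12 member windows (83.3%) and in 185 of 293 windows outside the members (63.1%), a difference that was not tested. The 15 include nhr-58 (317), nhr-201 (243), nhr-108 (164), nhr-228 (134) and the neighbours nhr-133 (133) and nhr-184 (95.4). nhr-212 and nhr-136 were the 2 in which it ran against the gene. Median GC content was 39.6% at member summits and 40.6% at all promoter summits.

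For 96 members no optimal summit was found, and most of them had no weaker region either. A pooled region was in the promoter of 22 of them, at the maximal −log10 q in 7. In 53, no region of the pooled list or of either replicate list had its summit in the promoter. None of the 96 had an optimal summit elsewhere in the gene. The same counts over all genes without an optimal promoter summit are not given here, so these are not shown to be particular to the members. Reads cannot be assigned to repeated sequence, so the unique share of each promoter was counted. At least 90% of promoter 36-mers occurred once in the genome for 83 of the 96 and for 58 of the 63 with a summit. Over all 19973 genes this held for 17320. Whether repeats account for any missing summit was not tested. nhr-141 is the extreme case, with 7.29% unique and no region in any list. nhr-168, whose protein is 72.1% identical to that of nhr-141, had a promoter that was 100% unique and a signal of 80.1. Promoters under 90% unique had a summit in 5 of 18, and the others in 58 of 141 (41.1%, against 27.8%), with overlapping intervals.

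The proteins of the members were compared through their coding exons, translated from the reference genome. Their median length was 391 residues (range 93 to 579). The cysteine pattern of the first zinc finger was found in 150. None of the 9 without it (nhr-251, nhr-263, nhr-172, nhr-246, nhr-196, nhr-223, nhr-282, nhr-233 and nhr-288) had a promoter summit. With 0 of 9 the Wilson interval reaches 29.9%, above the share of all genes (24.8%). The P-box is the part of the first finger that reads the DNA half-site. Members were grouped by a short stretch of residues that holds it and is longer, so different groups may share the P-box proper. This stretch, called the P-box below, was the same in 62 members, 30 of which (48.4%) had a summit. The next most frequent P-box was shared by 11, with a summit in 9, namely nhr-47, nhr-101, nhr-209, nhr-154, nhr-153, nhr-136, nhr-168, nhr-60 and nhr-116. Of these 9, 4 belong to the run in which every gene had a summit, so they share their surroundings. Members with other P-boxes had a summit in 24 of 77 (31.2%). The share of 9 of 11 has a wide interval (52.3 to 94.9%). The median signal of these 9 was 64.8, below the 133 of the most frequent P-box and the 135 of the other P-boxes. The P-box grouping was made after summits were known.

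Some close relatives differed, though less often than members at large. Identity is the number of identical aligned residues over the length of the shorter protein, in percent, and its median over all 12561 pairs was 24.2%. The most alike pair, the neighbours nhr-253 and nhr-254 (82.6%), had no region at either promoter. The adjacent nhr-123 and nhr-98 (80.1%) had 69.3 and, below the optimal set, 30.8. nhr-193 and nhr-90 (78.6%), which lie in opposite arms of the chromosome, both had a summit, at 79.0 and 41.0. nhr-197 and nhr-268 (78.2%) had none. Of the 92 pairs at least 50% identical, 17 had a summit at both genes, 34 (37.0%) at 1 and 41 at neither. Over all pairs these numbers were 1953, 6048 (48.1%) and 4560. The difference was not tested, and some of the close pairs are also neighbours.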

How the data were processed

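ChIP-seq of eGFP-tagged NHR-28 in L4 larvae was deposited as narrowPeak lists. Per the deposited file descriptions, each was called against a control alignment, for each of 2 replicates and for both pooled, and the authors derived an optimal set from these by the irreproducible discovery rate. The caller, its version and the threshold were not given in the sources used here. The deposited signal value (column 7) and −log10 q were used as the authors gave them. The −log10 q has a ceiling of 4.32 in the pooled list, reached by 10560 regions. Lists on ce10 were not used.

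Genes came from Ensembl release 115 (WBcel235, the same build as ce11), with TSSs of protein-coding transcripts on nuclear chromosomes. Sequences came from the RefSeq genome. A replicate value is that of the region of highest signal covering the optimal summit. Intervals are Wilson 95% intervals. Uniqueness is the share of promoter 36-mers found once in the genome, on either strand. Proteins were aligned globally (Biopython 1.88, BLOSUM62). Other work used Python 3.11.15, numpy 2.4.6, pandas 2.3.3 and scipy 1.17.1. Scripts were tested on made-up data. No test was run. With 1 group of 2 samples no groups could be compared, and the genes were chosen with earlier results of these data known.

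The members and lists were chosen with earlier results of these data known. Named genes followed a rule: the 20 members of highest signal, the 4 weakest, the 4 strongest outside the optimal set, members with several summits, runs of 3 or more with a summit, the 4 most alike protein pairs and gene-body summits. Others, among them the runs with none, the motif carriers and the P-box groups, were named after their values were seen. Alternatives changed the promoter window, the assignment, the list and the motif window, and left out each replicate.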

Additional observations from a re-analysis of the deposited data

How the results depend on the processing

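The count of members with a promoter summit was 63, and under the 8 alternatives it ranged from 44 with the optimal regions above the median signal to 72 with the widest promoter window. Leaving out each replicate gave 62 to 65. The ratio of the members' median signal to that of all genes was 1.64, and 1.36 with the widest promoter window. Leaving out each replicate gave 1.41 to 1.67, the lower value without replicate 1. The cause was not tested. The median summit position was -149 bp with the widest window, against -94.5 bp. The unique share of promoters without a summit was 100% in the median by 36-mers and by 50-mers. With 2 replicates of 1 group and no read counts, neither spread between animals nor depth could be assessed, and a promoter without a region is not shown to be unbound. No paired analysis was possible because there is 1 group.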
